A study of Mus musculus with 12 samples.

Results

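The 34 genes described here were listed as genes of excitatory neurons of the cerebral cortex and of the thalamus. They were followed as possible tracers of how much of the tissue around the striatum each dissection held. Not all are confined to these neurons: striatal neurons also express Ngef, and striatal astrocytes also make Crym. They were chosen as a list of symbols: 26 are known from cortical neurons, 6 from thalamic neurons, and Zic1 and Zic4 are transcription factors of the thalamus, the septum and other midline regions. Each symbol matched 1 gene of the 55487 listed in the count tables, and all 34 were among the 21309 genes that passed the filter on low counts. The list was drawn up with the levels in these same 12 libraries known. The levels, correlations and calls of its members below are therefore a description of these libraries, and nothing is supported by them.

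The libraries were made from poly(A)-selected RNA of striatal tissue from 12 mice, 3 in each of 4 groups. The cGAS-KO;HD mice were double mutants that combined loss of cGAS with the knock-in allele. The HD mice were heterozygous for zQ175 neo-deleted, a mouse Htt allele with a long CAG tract. The cGAS-KO mice lacked cGAS, the sensor of cytosolic DNA that signals through STING, and the WT mice were C57BL/6J controls. Age, sex, litter and the strain background of the mutants are not stated in the labels. Mice are named by group and by the number in the title (A1 to A3), and a number is not a pairing across groups. The series asks whether loss of cGAS alters disease in the knock-in mice.

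The striatum receives its excitatory input from the cortex and the thalamus. Its own output neurons, the medium spiny neurons, are GABAergic. Cortical projection neurons load glutamate into vesicles with Slc17a7 (VGLUT1), and most thalamic relay neurons use Slc17a6 (VGLUT2). The cell bodies that make these mRNAs lie outside the striatum, the cortex above it and across the corpus callosum, the thalamus behind it. In bulk tissue, fewer cells of a type and less RNA per cell cannot be told apart.

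Totals lay between 59195327 and 72765623 counts per library, and the lowest count of any member in any library was 25. The 34 genes together took 0.199% to 0.371% of a library's counts, with the maximum in cGAS-KO A3. That library also had the highest share of mitochondrially encoded counts, 11.5% against 5.3% to 9.03% in the other libraries. It had the fewest genes detected as well (26827) and the lowest TMM scaling factor (0.8618). Medium spiny neuron genes were present in all 12 libraries: the summed level of 17 markers was 2510 to 2570 CPM in cGAS-KO;HD, 1530 to 2910 CPM in HD, 5720 to 7000 CPM in cGAS-KO and 4570 to 6570 CPM in WT. CPM are library-scaled counts (edgeR, with TMM factors). Xist, which is transcribed from an inactive X, was at 1210 to 1380 CPM of the raw totals in 6 libraries and at 0.266 to 2.48 CPM in the others. The Y-linked gene Ddx3y was at 0 to 0.103 CPM in the high-Xist libraries and at 80 to 113 CPM in the others. WT A1 and cGAS-KO A3 were the high-Xist libraries of their groups. In the mutants the high-Xist libraries were HD A1, HD A2, cGAS-KO;HD A2 and cGAS-KO;HD A3.

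The plot of relative levels shows the pattern that the values below spell out. Most of the listed cortical genes were low and the thalamic genes high in WT A1 for its group, and the reverse held in cGAS-KO A3.

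**Figure D1:**
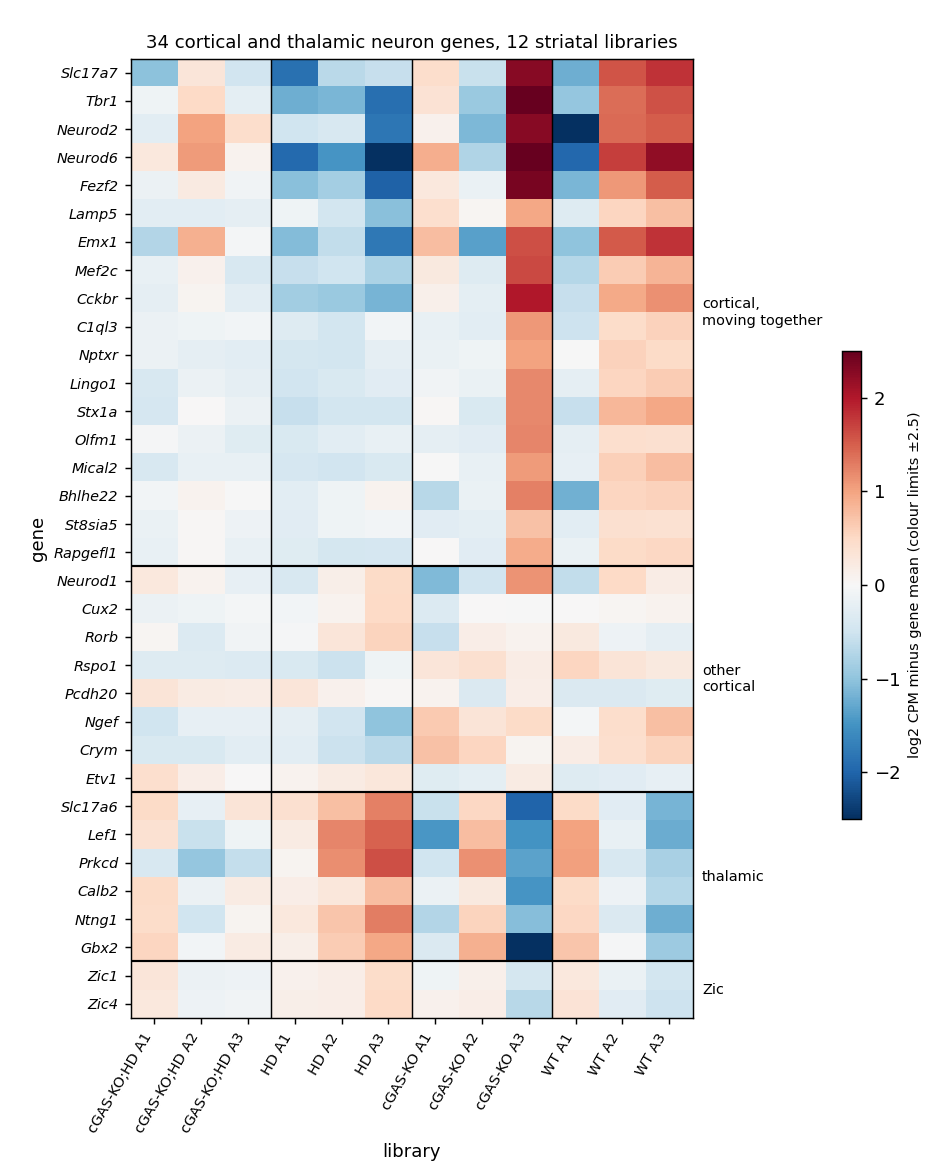
Level of each of the 34 genes (rows) in each of the 12 libraries (columns), as log2 CPM minus the mean of the gene over the libraries, on a colour scale limited to ±2.5. Of the 26 cortical genes at the top, 18 are high in cGAS-KO A3, WT A2 and WT A3 and lower in WT A1 and the HD libraries, and the thalamic genes run the other way. The other 8 cortical genes, Rorb, Pcdh20, Etv1 and Crym among them, do not share this pattern as a whole, though Neurod1 and Ngef share parts of it.

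The cortical transcription factors included those that set the identity of deep-layer neurons. Tbr1, the T-box factor of layer 6 neurons (chr2:61802930-61814114 in GRCm38), was at 9.35, 9.93 and 5.9 CPM in HD A1, A2 and A3, against 11.2, 57.6 and 66.1 CPM in WT A1, A2 and A3. It was at 20.4, 30.8 and 18.5 CPM in the cGAS-KO;HD libraries, against 28.2, 11.5 and 133 CPM in the cGAS-KO libraries. HD and WT did not overlap for Tbr1, but WT A1 stood much nearer to HD A2 than to WT A2. Neurod6, a bHLH factor of cortical pyramidal neurons, was at 2.72, 3.79 and 1.01 CPM in HD and at 2.69, 34.9 and 48.9 CPM in WT. In cGAS-KO;HD it was at 12.6, 22 and 11.1 CPM, against 19.7, 6.2 and 99.3 CPM in cGAS-KO. Its highest library exceeded its lowest 98.8-fold, the widest range among the 34. Fezf2, the zinc finger factor of layer 5 projection neurons, was at 2.95, 3.36 and 1.5 CPM in HD and at 2.73, 12.8 and 17.4 CPM in WT. It was at 5.49, 7.1 and 5.7 CPM in cGAS-KO;HD, against 7.26, 5.39 and 31.4 CPM in cGAS-KO. For Neurod6 and Fezf2, WT A1 lay inside the HD range while WT A2 and WT A3 lay above every HD library.

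Cux2 and Rorb did not follow Tbr1. Cux2, a homeobox factor of upper-layer neurons, was at 43.1, 47.8 and 63.5 CPM in HD and at 45.4, 46.4 and 47.8 CPM in WT. It was at 41, 42 and 43.7 CPM in cGAS-KO;HD, against 35.6, 45.2 and 44.6 CPM in cGAS-KO. Rorb, the nuclear receptor of layer 4 that thalamic neurons also express, was at 31.4, 39.7 and 47.6 CPM in HD and at 38, 29.6 and 27.7 CPM in WT. Its values were 33.4, 25.4 and 30.2 CPM in cGAS-KO;HD and 21.5, 36 and 34.2 CPM in cGAS-KO. For Cux2 and Rorb the HD libraries overlapped WT, the top library was HD A3, and cGAS-KO A3 did not stand out. The highest library exceeded the lowest 1.78-fold for Cux2 and 2.21-fold for Rorb, and Rorb had r = 0.637 with the mean of the thalamic members.

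Of the remaining 6 factors, 4 followed Tbr1. Neurod2 ran between 1.53 CPM in WT A1 and 47.5 CPM in cGAS-KO A3. Emx1, a homeobox gene of the cortical primordium and its excitatory descendants, ran between 0.331 CPM in HD A3 and 3.98 CPM in WT A3, and was the least abundant member. Mef2c, an activity-dependent MADS-box factor, ran between 89.1 CPM in HD A3 and 482 CPM in cGAS-KO A3. Bhlhe22 ran between 2.57 CPM in WT A1 and 14.1 CPM in cGAS-KO A3. Neurod1 ran between 1.8 CPM in cGAS-KO A1 and 8.4 CPM in cGAS-KO A3, so its lowest and highest libraries were of the same group. Etv1, an ETS factor of layer 5, ran between 74.2 CPM in WT A1 and 123 CPM in cGAS-KO;HD A1.

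Among the cortical transporters, receptors and surface or secreted proteins, Slc17a7 (chr7:45163949-45176142) was at 34.8, 80.5 and 85.3 CPM in HD, against 54.9, 377 and 445 CPM in WT. It was at 62.4, 157 and 91.9 CPM in cGAS-KO;HD, against 174, 86.8 and 621 CPM in cGAS-KO. The group means were 66.9 ± 27.9 CPM in HD and 292 ± 208 CPM in WT, and 104 ± 48.4 CPM in cGAS-KO;HD and 294 ± 286 CPM in cGAS-KO (SD, n = 3 each). Inside WT alone, A2 exceeded A1 6.87-fold, while A2 and A3 were close to each other, so the WT mean was taken over unlike libraries. The promoter windows of Slc17a7 and of its thalamic counterpart Slc17a6 are given. These are the transporters of cortical projection neurons and of most thalamic relay neurons. Each window runs from 250 bases before to 50 bases after a RefSeq start in GRCm38.p6, on the plus strand. Capitals mark the E-box CAGATG, which NEUROD factors can bind.
Slc17a7, chr7:45163671-45163970: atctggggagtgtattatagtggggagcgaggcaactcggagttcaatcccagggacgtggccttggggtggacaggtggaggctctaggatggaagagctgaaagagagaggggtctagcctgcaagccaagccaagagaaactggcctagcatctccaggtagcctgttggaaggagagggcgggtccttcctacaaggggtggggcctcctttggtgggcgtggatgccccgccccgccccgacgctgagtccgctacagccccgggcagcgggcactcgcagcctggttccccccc
Slc17a6, chr7:51621580-51621879: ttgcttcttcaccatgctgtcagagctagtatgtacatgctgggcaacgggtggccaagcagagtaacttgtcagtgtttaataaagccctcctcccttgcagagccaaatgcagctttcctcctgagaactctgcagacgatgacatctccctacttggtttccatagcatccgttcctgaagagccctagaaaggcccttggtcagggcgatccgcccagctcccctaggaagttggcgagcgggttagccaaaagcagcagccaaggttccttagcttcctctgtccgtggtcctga
Slc17a6, downstream start, chr7:51624387-51624686: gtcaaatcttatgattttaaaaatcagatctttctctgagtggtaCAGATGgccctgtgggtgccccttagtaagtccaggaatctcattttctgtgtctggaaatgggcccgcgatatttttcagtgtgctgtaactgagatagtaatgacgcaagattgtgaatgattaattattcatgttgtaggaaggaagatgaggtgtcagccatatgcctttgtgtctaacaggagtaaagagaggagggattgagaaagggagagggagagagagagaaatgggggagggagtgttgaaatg

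CAGATG was searched on both strands in the windows of 300 bases of 29 members with a RefSeq entry outside chromosome 18. The windows of the other members were not searched. It was found in 5 of 30 windows of the cortical members (16.7%) and 2 of 10 windows of the thalamic members (20%), against 17.2% of all 32851 windows. The T-box motif AGGTGTGA was in none of these windows and in 1.28% of all windows. The motifs do not overlap each other in sequence, and these matches describe letters in a window, not binding.

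The ratio of Slc17a7 to Slc17a6 counts set the libraries apart more widely than either gene did. The exons of the 2 genes span 5392 and 5399 bases, so counts compare per length. The ratio was 0.226, 0.407 and 0.303 in HD A1, A2 and A3, against 0.334, 3.9 and 8.52 in WT A1, A2 and A3. It was 0.382, 1.54 and 0.628 in cGAS-KO;HD, against 2.19, 0.518 and 21.3 in cGAS-KO. WT A1 lay within the HD range, and cGAS-KO A3 lay above every other library.

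Rspo1, a secreted enhancer of Wnt signalling, was at 4.76, 4.31 and 5.76 CPM in HD and at 9.02, 7.83 and 7.37 CPM in WT. It was at 5, 4.97 and 4.94 CPM in cGAS-KO;HD, against 7.68, 8.22 and 7.07 CPM in cGAS-KO. All 6 libraries with the knock-in allele lay below all 6 without it. WT A1 was the highest WT library and cGAS-KO A3 the lowest cGAS-KO library, as for Slc17a6, and on deviations from the group means Rspo1 had r = 0.715 with Slc17a6 and -0.539 with Slc17a7. Pcdh20, a non-clustered protocadherin, was at 26.9, 23.3 and 22.1 CPM in HD and at 16.8, 17 and 17.5 CPM in WT. It was at 27.2, 25.2 and 24.7 CPM in cGAS-KO;HD, against 23, 16.9 and 24.3 CPM in cGAS-KO. HD lay above WT in every library, and cGAS-KO reached from the WT level to the HD level.

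The other 7 genes of this class followed Slc17a7 over the 12 libraries, with Pearson's r of log2 CPM between 0.78 for Lamp5 and 0.931 for Lingo1. Their order was looser, with Spearman's coefficient as low as 0.594 for Nptxr. Within HD, Lamp5 fell from A1 to A3 (51.7, 40.4 and 26.9 CPM) while Slc17a7 rose. Cckbr, the cholecystokinin B receptor, ran between 5.56 CPM in HD A3 and 49.5 CPM in cGAS-KO A3. Lamp5, a membrane protein of the LAMP family, ran between 26.9 CPM in HD A3 and 109 CPM in cGAS-KO A3. C1ql3, a secreted synaptic C1q-like protein, ran between 17.9 CPM in WT A1 and 54.6 CPM in cGAS-KO A3. These 3 had their top value in the same library as Slc17a7 and their bottom value in HD A3 or WT A1. Lingo1, a leucine-rich repeat protein of the Nogo receptor complex, ran between 75.8 CPM in HD A1 and 243 CPM in cGAS-KO A3. Nptxr, the neuronal pentraxin receptor, ran between 152 CPM in HD A2 and 420 CPM in cGAS-KO A3. Olfm1, a secreted olfactomedin, ran between 237 CPM in HD A1 and 722 CPM in cGAS-KO A3. St8sia5, a sialyltransferase of gangliosides, had the narrowest range of the genes that followed Slc17a7, 19.9 CPM in HD A1 to 40.3 CPM in cGAS-KO A3. Per kilobase of exon, Olfm1 had the highest median level of all 34 genes over the libraries, 75.4 CPM per kb, and Emx1 the lowest, 0.423 CPM per kb.

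Of the intracellular and presynaptic proteins, Ngef (ephexin), a guanine nucleotide exchange factor downstream of Eph receptors that striatal neurons express strongly, was at 181, 152 and 105 CPM in HD and at 205, 287 and 354 CPM in WT. It was at 150, 184 and 182 CPM in cGAS-KO;HD, against 330, 265 and 294 CPM in cGAS-KO. Neither pair of groups overlapped. Crym, the thyroid hormone-binding protein mu-crystallin that striatal astrocytes also make, was at 33.2, 27.6 and 25.1 CPM in HD and at 45.6, 53.2 and 58.8 CPM in WT. It was at 30.5, 30.6 and 33.2 CPM in cGAS-KO;HD, against 66.6, 57.9 and 41.8 CPM in cGAS-KO. Neither pair overlapped for Crym, and cGAS-KO A3 was the lowest of its group, opposite to its place for Slc17a7. Stx1a, the syntaxin of synaptic vesicle fusion, ran between 31.9 CPM in HD A1 and 109 CPM in cGAS-KO A3. Mical2, an actin-oxidising enzyme, ran between 59.7 CPM in HD A2 and 176 CPM in cGAS-KO A3, and Rapgefl1, a Rap exchange factor-like protein, between 52.7 CPM in HD A2 and 135 CPM in cGAS-KO A3. These 3 followed Slc17a7.

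The thalamic genes ran the other way. Slc17a6 (chr7:51622006-51671119) was at 154, 198 and 282 CPM in HD and at 164, 96.8 and 52.2 CPM in WT. It was at 164, 102 and 146 CPM in cGAS-KO;HD, against 79.2, 168 and 29.1 CPM in cGAS-KO. WT A1 lay inside the HD range, WT A2 and WT A3 lay below every HD library, and cGAS-KO A3 was the lowest of all. Calb2 (calretinin), a calcium-binding protein of midline thalamic neurons and some interneurons, was at 96.6, 105 and 147 CPM in HD and at 119, 78.6 and 52.1 CPM in WT. It was at 119, 78 and 98.8 CPM in cGAS-KO;HD, against 77.4, 102 and 31 CPM in cGAS-KO. Lef1, a transcription factor of Wnt signalling that thalamic neurons keep in the adult, was at 9.47, 19.2 and 22.8 CPM in HD and at 16.6, 7.26 and 3.47 CPM in WT. Calb2 and Lef1 ordered the WT libraries as Slc17a6 did, A1 above A2 above A3.

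Lef1 was at 10.7, 5.6 and 7.61 CPM in cGAS-KO;HD, against 3.02, 14 and 2.92 CPM in cGAS-KO. Prkcd, the protein kinase C delta of sensory thalamic relay neurons, was at 87.1, 185 and 255 CPM in HD and at 170, 63.1 and 47.2 CPM in WT. It was at 63.1, 42.5 and 54.7 CPM in cGAS-KO;HD, against 58.6, 183 and 32.8 CPM in cGAS-KO. Prkcd was the only thalamic gene for which cGAS-KO;HD and HD did not overlap, with every cGAS-KO;HD library lower. Ntng1 (netrin-G1), an axonal adhesion protein of thalamocortical neurons, ran between 31.5 CPM in WT A3 and 180 CPM in HD A3. Gbx2, a homeobox gene of thalamic development, ran between 0.916 CPM in cGAS-KO A3 and 11.8 CPM in HD A3. HD A3 was the highest of 12 libraries for all 6 thalamic genes.

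Zic1 and Zic4 are neighbours on chromosome 9, with RefSeq starts on opposite strands. Zic1 was at 169, 176 and 215 CPM in HD and at 190, 140 and 115 CPM in WT. It was at 195, 143 and 145 CPM in cGAS-KO;HD, against 147, 172 and 116 CPM in cGAS-KO. Zic4 ran between 12.3 CPM in cGAS-KO A3 and 28.1 CPM in HD A3. Both were top in HD A3, and WT A1 was the top of WT for both, as for the thalamic genes. Their windows, 2703 bases apart, are given because the 2 genes moved together, each 5' to 3' on its own strand and without either motif.
Zic1, chr9:91365719-91366018, minus strand: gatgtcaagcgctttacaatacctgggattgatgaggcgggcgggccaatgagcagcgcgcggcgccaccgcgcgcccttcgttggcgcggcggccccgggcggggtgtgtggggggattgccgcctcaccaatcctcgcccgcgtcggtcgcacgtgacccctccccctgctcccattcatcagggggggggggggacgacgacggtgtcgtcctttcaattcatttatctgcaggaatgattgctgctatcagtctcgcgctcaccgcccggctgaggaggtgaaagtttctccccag
Zic4, chr9:91368722-91369021, plus strand: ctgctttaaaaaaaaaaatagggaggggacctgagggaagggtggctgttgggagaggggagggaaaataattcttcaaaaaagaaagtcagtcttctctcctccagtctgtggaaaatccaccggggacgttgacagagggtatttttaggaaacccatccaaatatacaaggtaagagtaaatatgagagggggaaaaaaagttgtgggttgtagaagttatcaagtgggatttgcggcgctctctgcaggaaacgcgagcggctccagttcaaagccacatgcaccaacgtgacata

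Exons of 9 members overlap another gene in GENCODE M21. Neurod1 shares same-strand bases with Cerkl and Nptxr with Npcd, so reads there may have been split or dropped, and their values are uncertain to that extent. Zic1 and Zic4 overlap on opposite strands. The libraries were directional, but the labels do not state how strand was used in counting.

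**Figure D2:**
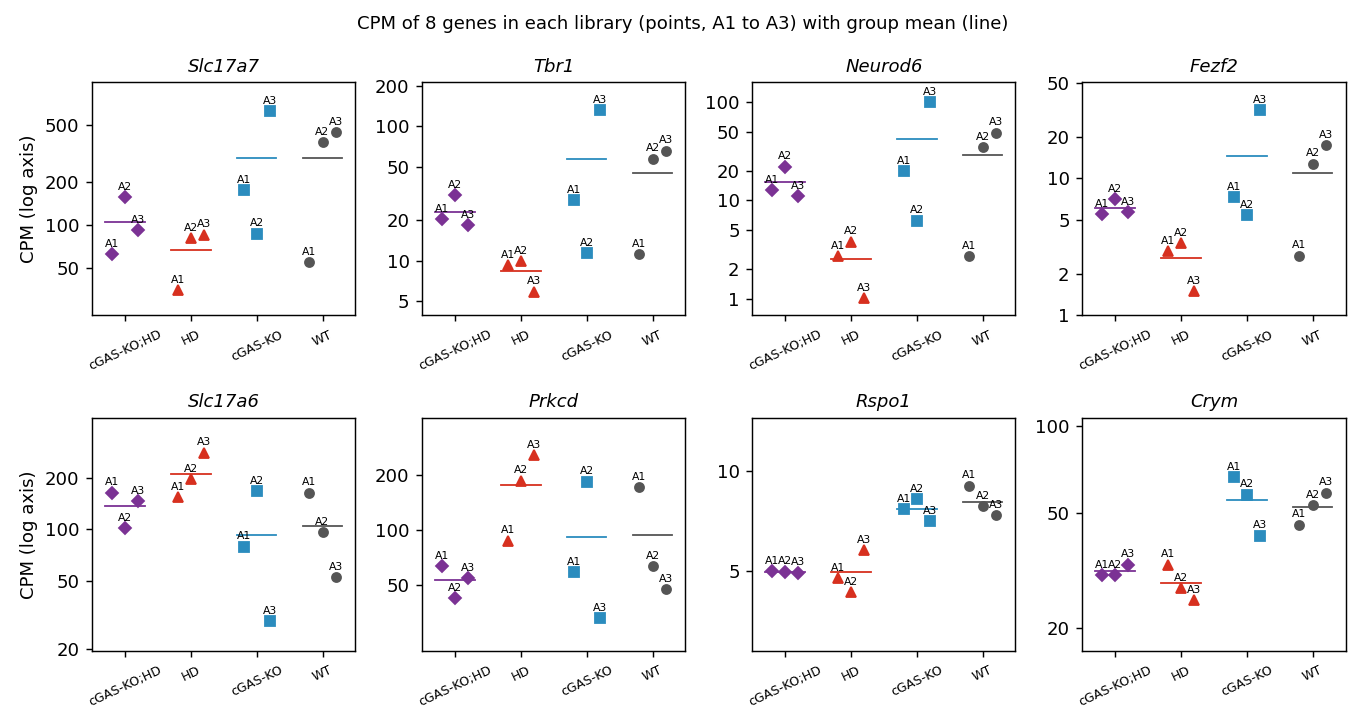
CPM on a log axis of 8 genes in each library (points, labelled A1 to A3) by group, with a line at each group mean (n = 3). Slc17a7, Tbr1, Neurod6 and Fezf2 spread widely inside WT and cGAS-KO, Slc17a6 and Prkcd spread the other way, and for Rspo1 and Crym the groups with the knock-in allele lie below those without it.

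Across the 12 libraries the cortical genes fell into 2 classes. For 18 of the 26, Pearson's r of log2 CPM with the mean of the other cortical members was above 0.8, a threshold chosen after the values were seen. These 18 are Slc17a7, Tbr1, Neurod2, Neurod6, Fezf2, Lamp5, Emx1, Mef2c, Cckbr, C1ql3, Nptxr, Lingo1, Stx1a, Olfm1, Mical2, Bhlhe22, St8sia5 and Rapgefl1. Just inside lay Bhlhe22 with r = 0.811 and just outside lay Ngef with r = 0.62. The other 8 (Neurod1, Cux2, Rorb, Rspo1, Pcdh20, Ngef, Crym and Etv1) ran down to r = -0.332 for Rorb. The 18 are called the co-varying cortical genes below.

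The co-varying class held genes of unlike function and level. Mef2c had r = 0.973 with the mean of the other cortical members, Stx1a 0.977, Lingo1 0.976 and Neurod2 0.826. The median r was 0.706 over 325 pairs of cortical members, 0.885 over 15 pairs of thalamic members and -0.773 over 156 pairs of a cortical and a thalamic member. Zic1 had r = 0.93 and Zic4 r = 0.91 with the mean of the thalamic members. With library deviations from the group means in place of levels, Slc17a7 and Slc17a6 had r = -0.768, against -0.846 over the levels. Without WT A1 and cGAS-KO A3 the r of the pair over 10 libraries was -0.77. The points of all these correlations share library, depth and scaling factor, and 3 mice of a group share a genotype.

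**Figure D3:**
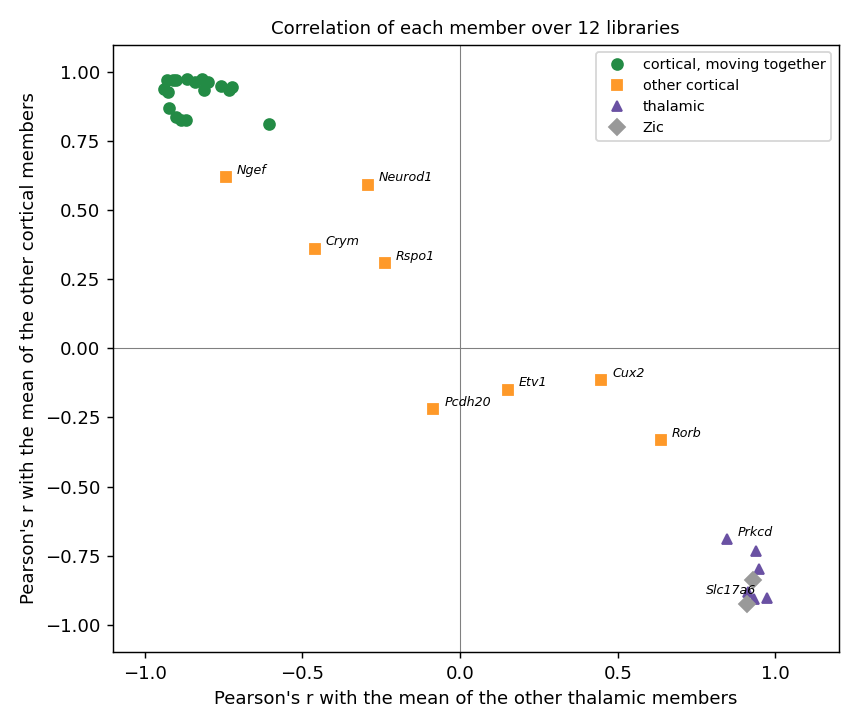
Pearson's r over 12 libraries of each of the 34 genes with the mean of the other thalamic members (horizontal axis) and with the mean of the other cortical members (vertical axis). The 18 co-varying cortical genes sit at the upper left above 0.8, the thalamic and Zic genes sit at the lower right, and the other 8 cortical genes lie between.

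WT A1 and cGAS-KO A3 were at opposite ends. WT A1 was below WT A2 and WT A3 for 18 of 18 co-varying cortical genes and above both for 6 of 6 thalamic genes and for both Zic genes. It was inside the HD range for 9 of the 18, below it for 3 (Neurod2, C1ql3 and Bhlhe22) and above it for 6 (Tbr1, Cckbr, Nptxr, Lingo1, Mical2 and Rapgefl1). For the thalamic genes it was inside the HD range in 6 of 6. cGAS-KO A3 was the highest of 12 libraries for 17 of the 18, the exception being Emx1, and the lowest for 5 of 6 thalamic genes, the exception being Ntng1. WT A2 and WT A3 were above every HD library for 18 of 18. The 18 were picked by their correlation over these same libraries, so a shared order among them was built into the choice. Of the other 8 cortical genes, WT A1 was below WT A2 and WT A3 for 6 and above both for 2. cGAS-KO A3 was the highest of 12 libraries for 1 of these 8. HD A3 was the lowest of 12 libraries for 7 of the 18 (Tbr1, Neurod6, Fezf2, Lamp5, Emx1, Mef2c and Cckbr). Slc17a7, in contrast, was highest of the HD libraries in HD A3. The ratio of the highest to the lowest library ran between 2.03 for St8sia5 and 98.8 for Neurod6 among the co-varying genes. Among the other 8 cortical genes it ran between 1.62 for Pcdh20 and 4.66 for Neurod1, and among the thalamic genes between 4.75 for Calb2 and 12.9 for Gbx2.

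Marker genes outside the 34 set the libraries in a similar order on average. The list of 25 other cortical projection neuron genes (such as Tle4 and Slc30a3) averaged 3.96, 4.07 and 3.87 log2 CPM in HD, against 3.98, 5.06 and 5.14 in WT. It averaged 4.24, 4.56 and 4.35 log2 CPM in cGAS-KO;HD, against 4.64, 4.24 and 5.49 in cGAS-KO. The list of 10 other thalamic genes (such as Tcf7l2, Rora and Shox2) averaged 5.12, 5.73 and 6.21 log2 CPM in HD, against 5.47, 4.58 and 3.84 in WT. It averaged 5.13, 4.52 and 4.93 log2 CPM in cGAS-KO;HD, against 4.13, 5.58 and 2.92 in cGAS-KO. WT A1 was inside the HD range on both lists, and cGAS-KO A3 was highest on the cortical list and lowest on the thalamic list. These are means of lists, and not every cortical gene on the list followed. Tshz2 and Nxph4 were highest of the WT libraries in WT A1 and lowest of the cGAS-KO libraries in cGAS-KO A3.

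The 2 outside lists correlated with each other over the 12 libraries with Pearson's r = -0.916 (permutation p = 0.00012, adjusted p = 0.0003) and Spearman's coefficient = -0.883 (permutation p = 0.00044, adjusted p = 0.00066). These were two-sided permutation tests with 100000 resamples, adjusted by Benjamini-Hochberg over 3 relations. Without cGAS-KO A3 and WT A3, the libraries farthest from the median on the thalamic list, r was -0.795. Within groups, on deviations from the group means, r was -0.881. The thalamic list also followed 6 habenula genes, with r = 0.861 (permutation p = 0.0002, adjusted p = 0.0003) and Spearman's coefficient = 0.874 (permutation p = 0.00042, adjusted p = 0.00066), and r = 0.922 without the same pair of libraries. The cortical list and 8 choroid plexus genes had r = -0.616 (permutation p = 0.0389, adjusted p = 0.0389) and Spearman's coefficient = -0.567 (permutation p = 0.0596, adjusted p = 0.0596), and r = -0.431 without that pair. These lists were also written with earlier results of the libraries known, and the permutations exchanged the 12 libraries freely across groups. The p-values are therefore a description and no support for the relations.

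**Figure D4:**
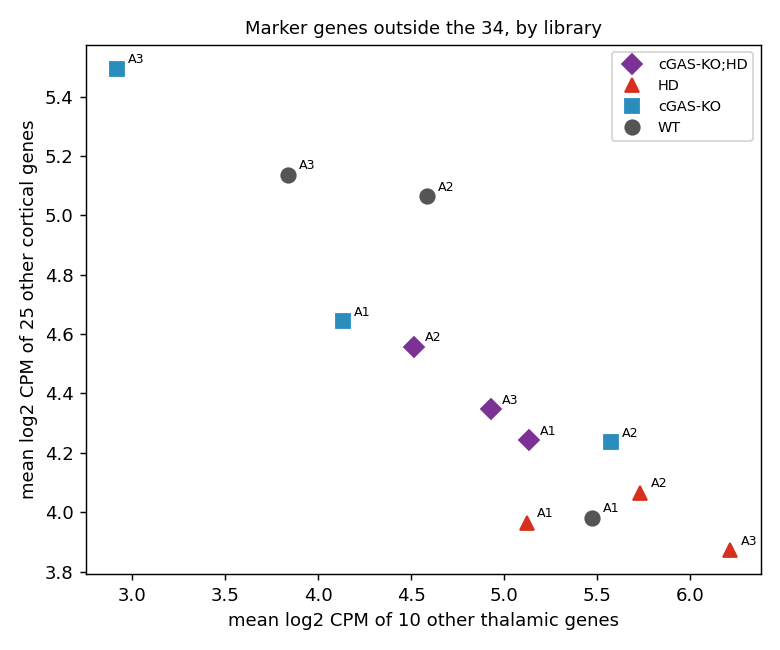
Mean log2 CPM of 10 thalamic genes (horizontal axis) and of 25 cortical projection neuron genes (vertical axis) that are not among the 34, 1 point per library. cGAS-KO A3 lies at 2.92 and 5.49, WT A1 at 5.47 and 3.98 beside the HD libraries, and the cGAS-KO;HD libraries lie between.

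The first comparison, HD against WT, gives the knock-in allele in mice with cGAS. Rspo1 fell by 0.71 ± 0.14 on the log2 scale, Ngef by 0.95 ± 0.21 and Crym by 0.88 ± 0.16, and Pcdh20 was 0.49 ± 0.12 higher in HD (± SE). These 4 of the 34 passed the threshold, 1 higher and 3 lower, with edgeR quasi-likelihood adjusted p of 0.0116 for Rspo1, 0.0297 for Ngef, 0.0088 for Crym and 0.0436 for Pcdh20. Over all genes tested 4.1% were called, 1.43% higher and 2.67% lower. None of the 4 is among the co-varying cortical genes or the thalamic genes. At an unadjusted p under 0.05 there were 16 of the 34.

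The largest differences were among the genes that were not called. Neurod6 had a log2 change of -3.53 ± 1.27 (edgeR adjusted p = 0.176), Tbr1 of -2.42 ± 0.93 (edgeR adjusted p = 0.2) and Slc17a7 of -2.13 ± 0.92 (edgeR adjusted p = 0.259). Slc17a6 had 1.02 ± 0.6 (edgeR adjusted p = 0.417). The 18 co-varying cortical genes had a median of -0.95, all 18 negative, and the 6 thalamic genes a median of 0.91, all 6 positive, against 0.01 over all genes tested. These genes varied together from library to library, and 18 genes are not 18 observations. HD and WT did not overlap for 11 members: 2 were higher in HD (Pcdh20 and Etv1) and 9 were lower, against 27.7% of all genes (14.6% higher and 13.1% lower).

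Counts of calls moved with most of the libraries left out, in both directions. The 873 genes became 282 without WT A2, 247 without WT A3, 265 without HD A2 and 324 without HD A3. Without WT A1, 7 members were called (Lamp5, Rspo1, Ngef, Emx1, Stx1a, Mical2 and Crym) and 7.02% of all genes (1532), against 873 genes with all libraries. Without WT A1 and cGAS-KO A3, 24 members were called, 3 higher (Pcdh20, Etv1 and Zic4) and 21 lower, with 16.5% of all genes called (3589). The median of the 18 co-varying genes was then -1.26. Both libraries were singled out by the levels of these same genes, so the values without them describe the other 10 libraries and are no test. Calls of Pcdh20 ended when any 1 of the 6 libraries was left out. Crym lost its call without WT A3 or HD A2, Rspo1 without HD A2, and Ngef in 4 of the 6 fits, without WT A2, WT A3, HD A2 or HD A3.

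With the mean of the 25 outside cortical genes as a term in the fit, the differences of the co-varying genes were smaller in size except that of Bhlhe22, and some changed sign. Slc17a7 had 0.22 ± 0.42 in place of -2.13, Tbr1 -0.2 ± 0.17 and Neurod6 -0.3 ± 0.35, and the median of the 18 was -0.02, with 9 negative and 9 positive and a range of -0.3 to 1.45. Neurod2 had 1.45 ± 0.35 (edgeR adjusted p = 0.0642) in place of -1.7, and Bhlhe22 0.96 ± 0.29 (edgeR adjusted p = 0.116) in place of -0.26. Rspo1 (-0.86 ± 0.14) and Crym (-0.93 ± 0.2) were called lower and Pcdh20 (0.63 ± 0.13) and Etv1 (0.6 ± 0.14) higher, with 2.08% of all genes called. Ngef had -0.64 ± 0.23 and was not called. The median of the 6 thalamic genes was -0.13. With the thalamic mean as the term instead, Rspo1, Crym, Pcdh20 and Etv1 were again the members called, with 3.48% of all genes, and the median of the co-varying genes was -0.32. With both means as terms, Bhlhe22 was called higher besides these 4, with 2.38% of all genes. In that fit of cGAS-KO;HD against cGAS-KO, Neurod2 and Pcdh20 were called higher and Rspo1, Crym and Prkcd lower, with 5.14% of all genes. The cortical mean is made of genes like the members, so the fit removes what the members share with it.

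The HD and WT difference also depended on which libraries were set side by side. Among libraries with high Xist, HD A1 and HD A2 against WT A1, the median log2 difference of the 18 co-varying genes was 0.04, with 8 negative and 10 positive. Among those with low Xist, HD A3 against WT A2 and WT A3, it was -1.44, with 18 of 18 negative. The thalamic medians were -0.27 and 2.03 in the same order. With high Xist as a term in the fit the median of the 18 was -1.05, and Rspo1 and Crym were the members called, with 3.16% of all genes. Xist, cortical content and single libraries cannot be told apart with 1 library on a side.

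The second comparison, cGAS-KO;HD against cGAS-KO, gives the knock-in allele in mice without cGAS. Rspo1 had a log2 change of -0.62 ± 0.14 (edgeR adjusted p = 0.0222) and Crym one of -0.82 ± 0.16 (edgeR adjusted p = 0.012), both lower in cGAS-KO;HD. These 2 of the 34 were called, against 3.96% of all genes (1.44% higher and 2.52% lower), and 5 had an unadjusted p under 0.05. Ngef had -0.79 ± 0.21 (edgeR adjusted p = 0.0644) and Pcdh20 0.26 ± 0.12 (edgeR adjusted p = 0.29). The groups did not overlap for 5 members, Pcdh20 higher and Lamp5, Rspo1, Ngef and Crym lower, against 21.5% of all genes (10.8% higher and 10.7% lower).

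The co-varying cortical genes again had lower levels, with no call. Slc17a7 had -1.5 ± 0.9 (edgeR adjusted p = 0.452) and Neurod6 -1.45 ± 1.14 (edgeR adjusted p = 0.584), and the median of the 18 was -0.63, all negative, against 0.003 over all genes. Without WT A1 and cGAS-KO A3 the median of the 18 was -0.004, with 9 negative and 9 positive. The members called were then Etv1 higher and Rspo1 and Crym lower, with 8.31% of all genes called. Slc17a7 had -0.33 ± 0.56 in that fit. Leaving out cGAS-KO A3 alone gave the same 3 calls, with 4.97% of all genes. Rspo1 lost its call in 5 of the 6 fits that left out 1 library of these groups, all but that without cGAS-KO A3. Crym lost its call without cGAS-KO A1, cGAS-KO;HD A1 or cGAS-KO;HD A2.

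With the outside cortical mean as a term, Neurod2 was called higher, with 1.29 ± 0.27 in place of -0.61 ± 1.05, and Rspo1 and Crym lower, against 4.61% of all genes. The median of the 18 was 0.02. With the thalamic mean as a term Pcdh20 was called higher and Rspo1, Crym and Prkcd lower, against 5.65% of all genes. Within high-Xist libraries, cGAS-KO;HD A2 and A3 against cGAS-KO A3, the median of the 18 was -1.32, with all 18 negative. Within low-Xist libraries, cGAS-KO;HD A1 against cGAS-KO A1 and A2, it was -0.1, with 11 negative and 7 positive. With high Xist as a term the median was -0.7 and Rspo1 and Crym were called, with 3.02% of all genes.

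**Figure D5:**
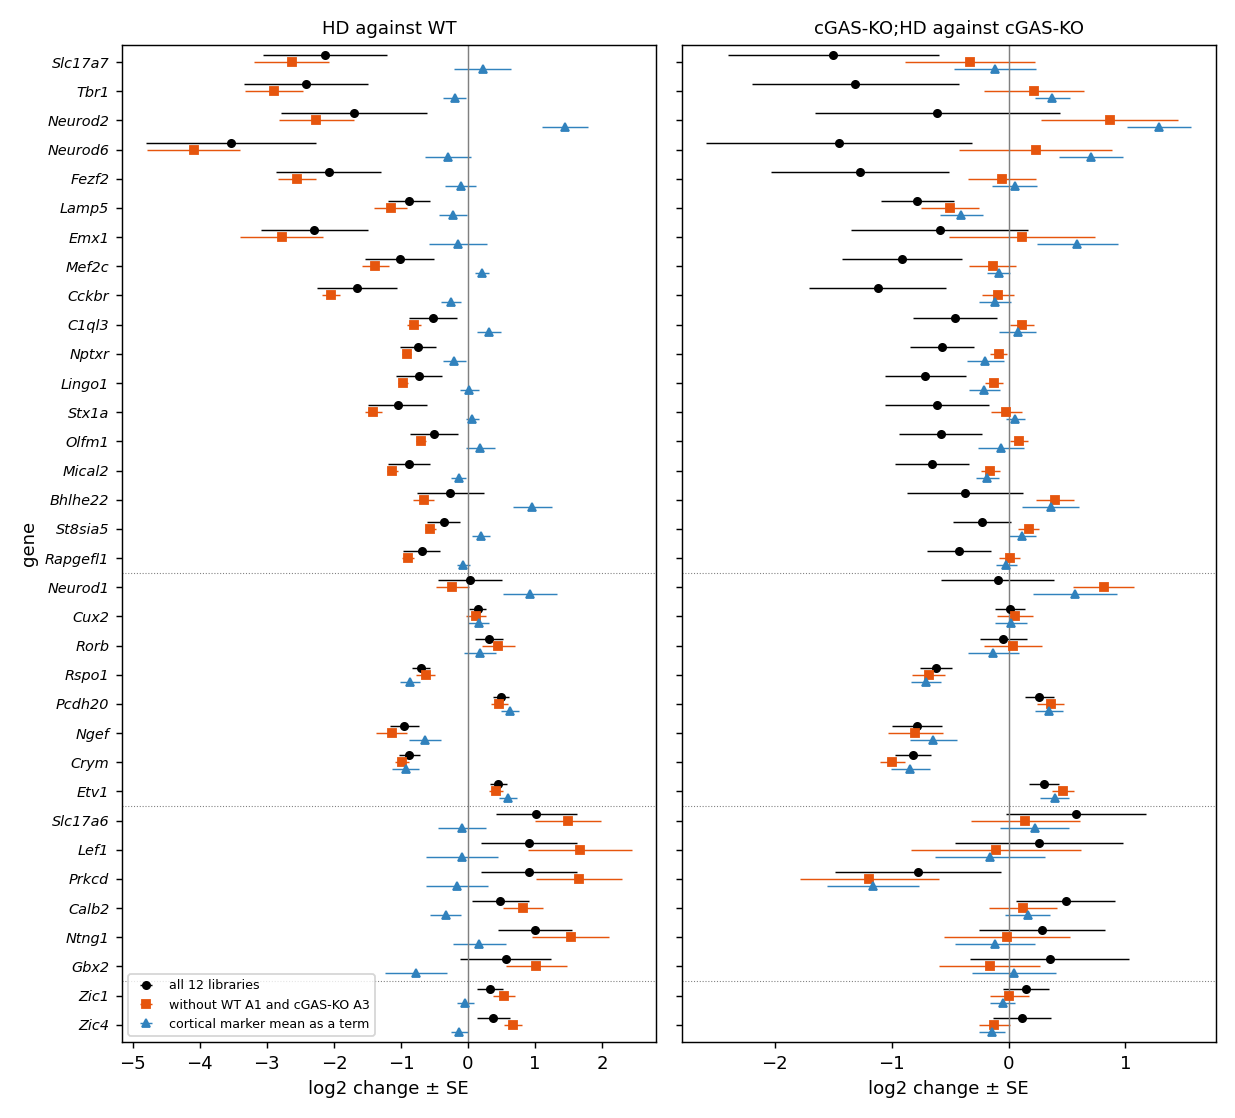
Log2 change ± SE (horizontal axis) of each of the 34 genes (rows) for HD against WT on the left and cGAS-KO;HD against cGAS-KO on the right, over all 12 libraries (black), without WT A1 and cGAS-KO A3 (orange) and with the mean of 25 outside cortical genes as a term (blue). Neurod6 in HD against WT lies at -3.53 over all libraries, while Rspo1 and Crym stay below 0 in all 3 fits of both comparisons.

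Rspo1 and Crym were thus the members lower with the knock-in allele on both cGAS backgrounds that were called in every fit with a content term and without the 2 named libraries, though leaving out single libraries ended these calls as given above, and the replicate block ended that of Rspo1 in cGAS-KO;HD against cGAS-KO (edgeR adjusted p = 0.0503). The 2 comparisons share no library. Medium spiny neuron genes moved in the same libraries: 14 of 17 were called lower in HD against WT and 13 of 17 in cGAS-KO;HD against cGAS-KO, with medians of -1.29 and -1.26. Over all genes tested 2.67% and 2.52% were called lower in these comparisons. Their part in the change of Rspo1, Crym and Ngef was not tested. Of the 25 outside cortical genes, Hs3st4 was called lower in both comparisons (-0.65 ± 0.13 and -0.55 ± 0.13, edgeR adjusted p = 0.0149 and 0.0323) and Nxph4 higher in cGAS-KO;HD against cGAS-KO (0.72 ± 0.14, edgeR adjusted p = 0.0135). The next in HD against WT by p were Kcnip3 (-0.55 ± 0.16) and Cplx3 (-1.85 ± 0.52), neither called. None of the 10 outside thalamic genes was called, the smallest p in HD against WT being that of Tnnt1 (1.7 ± 0.7, edgeR adjusted p = 0.232). Of all genes tested, 4.1% were called in HD against WT and 3.96% in cGAS-KO;HD against cGAS-KO, so few calls would be looked for in lists of this size.

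The third comparison, cGAS-KO against WT, gives loss of cGAS in mice without the knock-in allele, and shares the WT libraries with the first and the cGAS-KO libraries with the second. No member and no other gene was called by edgeR (0% of all genes), 1 member (Pcdh20, 0.32 ± 0.12, edgeR adjusted p = 0.919) had an unadjusted p under 0.05, and DESeq2's Wald test called 6 genes and limma-voom 0. Slc17a7 had 0.01 ± 0.88 and Slc17a6 -0.18 ± 0.6, and the median of the 18 co-varying genes was 0.12. The groups did not overlap for Cux2, lower in cGAS-KO, against 8.79% of all genes (4.25% higher and 4.53% lower). Without WT A1 and cGAS-KO A3 the median of the 18 was -0.88, with 18 of 18 negative, and 9 members were called lower (Cckbr, C1ql3, Nptxr, Lingo1, Stx1a, Olfm1, Mical2, St8sia5 and Rapgefl1), with 0.175% of all genes called. The thalamic median was then 0.76, against -0.18 over all libraries. Among high-Xist libraries, cGAS-KO A3 against WT A1, the median of the 18 was 2.06, and among low-Xist libraries, cGAS-KO A1 and A2 against WT A2 and A3, it was -0.89. With the cortical mean as a term the median was -0.02 and no member was called.

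The fourth comparison, cGAS-KO;HD against HD, gives loss of cGAS in knock-in mice, and shares its libraries with the first 2. No member was called, 1 gene of the table was (0.00469%), and Cux2 and Prkcd had an unadjusted p under 0.05. DESeq2's Wald test called 7 genes of the table. Neurod6 had 2.61 ± 1.23 (edgeR adjusted p = 0.757), Tbr1 1.47 ± 0.9 and Prkcd -1.72 ± 0.72 (edgeR adjusted p = 0.757). The 18 co-varying genes were all positive with a median of 0.3, and the 6 thalamic genes all negative with a median of -0.69. The groups did not overlap for 9 members, 8 higher (Tbr1, Neurod2, Neurod6, Fezf2, Mef2c, Cckbr, Stx1a and Rapgefl1) and Prkcd lower, against 17.1% of all genes (8.76% higher and 8.33% lower). With the cortical mean as a term the median of the 18 was -0.13, with 13 negative and 5 positive. Neither of the named libraries is in this comparison, and without them no member and 0.0046% of all genes were called.

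The interaction asks whether the knock-in difference was the same with and without cGAS. No member was called and none had an unadjusted p under 0.05, and 1 gene of the table was called (0.00469%), with 3 by DESeq2's Wald test. The median of the 18 co-varying genes was 0.25 over all libraries. Without WT A1 and cGAS-KO A3 it was 1.15, and 10 members were called higher (Fezf2, Cckbr, C1ql3, Nptxr, Lingo1, Stx1a, Olfm1, Mical2, St8sia5 and Rapgefl1), with 0.483% of all genes called. With the cortical mean as a term it was -0.06 and no member was called. Over all 12 libraries the interaction term of Neurod6 was 2.08 ± 1.64 and that of Slc17a7 0.63 ± 1.25.

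The genes outside the list whose levels over the 12 libraries were most like the mean of the cortical members were Pip5k1c (r = 0.99), Khdrbs3, Pgm2l1 and Etl4 (0.986 each), Ext1 and Dlgap1 (0.983 each), B3gat1 (0.982), and Ncald, Cnih3 and Rims1 (0.981 each). Several act at synapses: Dlgap1 is a postsynaptic scaffold, Rims1 organises the presynaptic active zone, Cnih3 is an AMPA receptor auxiliary subunit and Pip5k1c makes the lipid PIP2. Pip5k1c ran between 197 and 333 CPM, a range far narrower than that of Slc17a7, and Dlgap1 between 196 and 540 CPM. These are likenesses over 12 libraries picked from all genes tested.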

How the data were processed

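RNA was measured in 12 libraries of striatal tissue, 1 per mouse, with poly(A) selection and directional library preparation, per the labels' protocols. The authors deposited whole-number read counts per Ensembl gene. The aligner, genome build, annotation and counting rule are not stated in the labels. Titles gave the group and number of each library. The labels call the 3 mice of a group biological replicates.

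Symbols were taken from GENCODE M21 (GRCm38), which named 99.4% of the listed genes. At most 0.0611% of counts fell on genes without one. Counts were filtered with filterByExpr (minimum count 10, minimum total 15) and scaled by TMM. They were fitted over all 12 libraries with 1 mean per group by edgeR's robust quasi-likelihood test, with 8 residual degrees of freedom. A gene was called where its p, adjusted by Benjamini-Hochberg over all 21309 genes, was under 0.05. Correlations used log2 CPM with a prior count of 2. The promoter windows are RefSeq's.

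The members, marker lists and alternatives were chosen with earlier results of these data known. Members were named by a rule: defining cortical and thalamic genes, Zic1 and every called member with all library values, and other members by range. The 10 outside genes most like the cortical members were named too. The rule allowed up to 3 genes per marker list, and more than that were named for the outside cortical, outside thalamic and interneuron lists. Fits with both content means together or with high Xist as a term were chosen after seeing the data. Alternatives were DESeq2 size factors, 2 other filters, limma-voom, DESeq2's Wald test, fits to only the groups compared, a replicate block, an adjusted p under 0.01, leaving out libraries, and the content terms. The fits were tested on simulated data. Tac3 was not matched by symbol, and Prph2 and Mia did not pass the filter. Replicates of a group differed by 8.84 to 181 in chi-square per gene, so none repeats another. Depth limits the rare genes most, and p-values cover the spread between mice. The tools were DESeq2 1.42.0, limma 3.58.1 and edgeR 4.0.16, run in R 4.3.3.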

Additional observations from a re-analysis of the deposited data

How the results depend on the processing

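For HD against WT, 873 genes were called, against 1739 with DESeq2's Wald test, 257 at an adjusted p under 0.01, 444 with the cortical mean as a term, 507 with both content means as terms and 3589 without WT A1 and cGAS-KO A3. The 4 members called became 8 with DESeq2's Wald test, 1 at an adjusted p under 0.01, 2 with high Xist as a term and 24 without the pair of libraries. For cGAS-KO;HD against cGAS-KO, 843 genes were called, against 1661 with DESeq2's Wald test, 280 at 0.01, 460 on the compared groups alone and 1805 without the pair. The 2 members became 0 at 0.01, 4 with the thalamic mean and 5 with both means as terms. For cGAS-KO against WT, 0 genes became 6 with DESeq2's Wald test and 38 without the pair, and 0 members became 9. For cGAS-KO;HD against HD, 1 gene became 7 with DESeq2's Wald test. For the interaction, 1 gene became 3 with DESeq2's Wald test, 0 at 0.01, 0 with limma-voom and 105 without the pair, and 0 members became 10.

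Leaving out 1 library at a time gave 247 to 1532 genes and 0 to 7 members for HD against WT, 321 to 1089 genes and 0 to 3 members for cGAS-KO;HD against cGAS-KO, 0 to 0 genes for cGAS-KO against WT, 1 to 1 for cGAS-KO;HD against HD and 0 to 1 for the interaction, with 0 members in these 3. An arm then holds 2 libraries, and the spread is pooled over groups.

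Signs also turned. With the cortical mean as a term, the 18 co-varying genes in HD against WT were 9 negative and 9 positive in place of 18 negative, and the 6 thalamic genes 5 negative in place of 0. Without the pair, the 18 in cGAS-KO against WT were all negative in place of 13 positive. Of values called in a setting, these turned. Bhlhe22 was 1.08 in HD against WT with both means as terms. Neurod2 was 1.29 with the cortical mean and 1.28 with both means in cGAS-KO;HD against cGAS-KO. Without the pair of libraries, cGAS-KO against WT gave -1.1 for Cckbr, -0.75 for C1ql3, -0.71 for Lingo1, -0.68 for Olfm1 and -0.63 for Rapgefl1, and the interaction of Olfm1 was 0.79. Pcdh20 in HD against WT was not called with limma-voom, with high Xist as a term or with the replicate block. The block also ended the call of Ngef in HD against WT (edgeR adjusted p = 0.0715) and of Rspo1 in cGAS-KO;HD against cGAS-KO (edgeR adjusted p = 0.0503). A fit to only the groups compared ended both of these too, and Ngef was not called without the low-count filter or with any content or Xist term. The cause was not tested.

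Replicate numbers did not pair the mice: deviations of same-numbered libraries correlated at -0.128 to 0.203. With the replicate number as a block, 507 and 596 genes were called for HD against WT and cGAS-KO;HD against cGAS-KO, with 2 and 1 members, and 0, 1 and 1 genes for the other 3 comparisons (in the order above). The lowest member count was 25, and precision rests on 3 mice a group.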

Other observations

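The mean of 6 habenula genes correlated with the thalamic mean, but its members differed. Pou4f1, a transcription factor that defines the medial habenula, was at 1.11, 4.6 and 6.36 CPM in HD and at 1.11, 0.0171 and 0.0569 CPM in WT. It was at 2.2, 1.51 and 1.72 CPM in cGAS-KO;HD, against 0, 0.954 and 0 CPM in cGAS-KO. It was at or near 0 in WT A2, WT A3, cGAS-KO A1 and cGAS-KO A3, all of which had outside thalamic means of 4.58 log2 CPM or less. cGAS-KO;HD A2 had a thalamic mean of 4.52 and 1.51 CPM of Pou4f1. Gng8, a G protein subunit of the habenula, had a log2 change of 0.79 ± 0.22 in HD against WT (edgeR adjusted p = 0.0601), and none of 6 habenula genes was called. Nwd2 went the other way in cGAS-KO A3, where it was at 39 CPM, its highest of 12 libraries, against 15 and 15.8 CPM in cGAS-KO A1 and A2. The summed level of the 6 there, 53.9 CPM, was exceeded by the 71.6 CPM of HD A3. Of 4 cortical interneuron genes none was called in HD against WT either, where 4.1% of all genes were called. Vip had -2 ± 0.78 (edgeR adjusted p = 0.199), Crh -0.53 ± 0.18 (edgeR adjusted p = 0.117), Cck -0.68 ± 0.54 (edgeR adjusted p = 0.562) and Htr3a -0.47 ± 0.28 (edgeR adjusted p = 0.405). Crh did not order the libraries as the cortical genes did: WT A1 was at 4.25 CPM, against 4.2 and 4.11 CPM in WT A2 and A3, and cGAS-KO A3 at 4.97 CPM lay below cGAS-KO A1 at 5.15 CPM. Cck was at 51.7 CPM in HD A3 and 31.5 CPM in WT A1. The 4 averaged 3.84 log2 CPM in cGAS-KO A3 and 2.25 in WT A1.

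Choroid plexus genes, from the tissue of the adjoining ventricle, did not follow the thalamic order throughout. The 8 genes averaged 4.11, 5.1 and 2.92 log2 CPM in HD, against 5.21, 2.29 and 1.56 in WT. They averaged 4.16, 4.34 and 2.05 log2 CPM in cGAS-KO;HD, against 4, 4.09 and 2.65 in cGAS-KO. HD A3 had the highest thalamic mean and a low choroid plexus mean. Septum and pallidum genes averaged between 3.45 log2 CPM in cGAS-KO A3 and 4.03 log2 CPM in WT A1. Oligodendrocyte genes ran between 8.77 in cGAS-KO A3 and 9.42 in WT A1, and ependymal genes between 2.03 and 3.26 in the same libraries. Meningeal fibroblast genes ran between 0.895 and 2.29. Pan-neuronal genes ran between 8.78 in cGAS-KO;HD A2 and 9.19 in cGAS-KO A3. Their summed level was 7880 CPM in cGAS-KO A3, against 4990 and 5090 CPM in cGAS-KO A1 and A2. Snap25 was higher there than in cGAS-KO A1 and A2 (3230 against 1640 and 1640 CPM) and Tubb3 lower (223 against 270 and 318 CPM). Of these lists, Rbfox3 (-0.75 ± 0.17, edgeR adjusted p = 0.0273) and Cldn11 (-0.5 ± 0.1, edgeR adjusted p = 0.0139) were the genes called in HD against WT, both lower. Over all genes tested 2.67% were called lower there.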
